A study of Mus musculus with 2 samples.

Results

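The promoters of 34 genes that drive DNA replication and mitosis were examined in open chromatin maps of the mouse spleen. The genes were taken by name from a list chosen with earlier results of these data known, and all 34 were found among the 21938 protein-coding genes of the GENCODE M21 annotation. DNase-seq, which sequences the cuts that the nuclease DNase I makes in accessible DNA, had been applied to spleen tissue of 2 male B6CASTF1/J mice, a hybrid strain, at 2 months of age. The labels give no treatment and number the mice as biological replicates 1 and 2 of 1 group, called animal 1 and animal 2 below. They share a donor ID and were taken as separate animals because their biosample descriptions number the males differently, so each SD with n = 2 and each ratio between the animals rests on that reading. No condition was compared, so the values describe these animals and carry no test. A whole spleen was used, and a site open in few cells cannot be told apart from a site weakly open in many. An F1 hybrid carries an allele of each parent strain, and the deposited positions are on the mm10 reference, so each value covers both alleles together. As a check of the labelled tissue, both spleens had promoter peaks at 5 of 5 B cell, 3 of 3 germinal centre and 4 of 5 T cell markers, and Cd4 had none. The red pulp macrophage list had 3 of 4, without Adgre1, and the erythroid list had 0 of 3, with a peak at Klf1 in animal 2 only. Of 6 genes of other tissues 2 were open, Apob and Cela1. Apob had a low peak, with a height of 0.430 in animal 1 and 0.462 in animal 2. Cela1 had 3.79 in animal 1 and 5.49 in animal 2, above the highest red pulp macrophage marker, Hmox1, at 2.20 in animal 1 and 3.17 in animal 2. Of all protein-coding genes 59.8% were open in both animals, and of those with an observed to expected CpG ratio of at least 0.6, 89.5%. All 3 germinal centre markers have such a ratio, against 1 of 5 B cell and 1 of 5 T cell markers. The germinal centre count is thus near the background and does not bear on germinal centre cells. The check therefore separates spleen from other tissues only in part.

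A cell that divides first licenses its replication origins by loading the MCM helicase, copies its DNA in S phase, and then condenses, aligns and separates its chromosomes in mitosis. Cyclin-dependent kinases time these steps, and the anaphase-promoting complex ends mitosis by marking cyclins and securin for destruction. In quiescent cells many of the genes are held silent by the DREAM complex, whose MuvB subunit LIN54 binds the CHR element and whose E2F4 subunit binds E2F sites. In cycling cells the MuvB core joins MYBL2 and FOXM1 at the late genes, and activating E2F factors act at the early ones. The CCAAT box, bound by NF-Y, is a frequent neighbour of the CHR. Most spleen lymphocytes rest in G0, while germinal centres and red cell precursors divide.

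Letters of these elements stood in the open part of the promoters, and 6 stretches are printed because they show the arrangements that recur: CHR with CCAAT boxes in genes of mitosis, and E2F letters in genes of replication. They are read from GRCm38.p6, the same sequence as mm10, 5′ to 3′ along the strand of the gene. All letters and motif matches here are those of this reference, and whether both alleles of the hybrid carry them was not examined. Capitals mark the CHR (TTTGAA), the CCAAT box (CCAAT) and the E2F octamers (TTTCCCGC, TTTGGCGC, TTTCGCGC or TTTGCCGC) on either strand, so that TTCAAA and ATTGG are the same elements read backwards. Positions count from the annotated transcription start site (TSS) nearest the strongest peak of animal 1, at 0, with negative numbers upstream.
Cdk1: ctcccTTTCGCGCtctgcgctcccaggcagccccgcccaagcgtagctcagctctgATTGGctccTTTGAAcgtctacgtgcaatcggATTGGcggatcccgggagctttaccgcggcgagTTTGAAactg
Ccnb2: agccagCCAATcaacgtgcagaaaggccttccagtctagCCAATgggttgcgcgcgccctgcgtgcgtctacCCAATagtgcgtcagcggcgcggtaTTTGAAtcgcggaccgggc
Top2a: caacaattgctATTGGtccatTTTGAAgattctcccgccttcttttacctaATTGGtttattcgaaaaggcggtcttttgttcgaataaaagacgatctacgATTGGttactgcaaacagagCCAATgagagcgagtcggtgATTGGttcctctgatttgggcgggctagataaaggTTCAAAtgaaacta
Kif11: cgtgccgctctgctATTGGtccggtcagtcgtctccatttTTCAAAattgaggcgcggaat
Mcm5: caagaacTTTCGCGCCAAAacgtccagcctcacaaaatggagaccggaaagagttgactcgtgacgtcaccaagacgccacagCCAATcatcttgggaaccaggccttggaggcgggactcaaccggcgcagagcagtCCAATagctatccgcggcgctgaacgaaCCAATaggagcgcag
E2f1: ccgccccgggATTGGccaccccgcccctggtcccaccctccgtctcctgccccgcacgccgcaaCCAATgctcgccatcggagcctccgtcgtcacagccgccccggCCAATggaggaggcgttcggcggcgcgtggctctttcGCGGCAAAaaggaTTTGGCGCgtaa

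The stretch of Cdk1, the kinase that starts mitosis, is chr10:69352918-69353048 on the minus strand, from -110 to 20. It holds a CHR at -45 to -40 and another at 11 to 16, CCAAT boxes at -54 to -50 and at -22 to -18, and an E2F octamer at -105 to -98. In both animals the CHRs and CCAAT boxes overlapped a deposited footprint, a short stretch protected from DNase I inside open chromatin, by at least 1 bp, and the E2F octamer did not. Such an element is called footprinted below. Ccnb2 encodes cyclin B2, a partner of that kinase, and its stretch is chr9:70421532-70421647 on the minus strand, from -100 to 15. Its CCAAT boxes begin at -94, -61 and -28, at equal spacing, and its CHR lies across the TSS from -3 to 2. The CHR and the upstream 2 CCAAT boxes were footprinted in both animals, and the box nearest the TSS was not. Top2a encodes topoisomerase II alpha, which untangles sister chromatids, and its stretch is chr11:99024199-99024389 on the minus strand, from -200 to -10. It holds 5 CCAAT boxes, of which 4 were footprinted in both animals, and a CHR at each end, of which the one at -179 to -174 was footprinted and the one at -23 to -18 was not. Kif11, the gene of the spindle motor Eg5, has in chr19:37376323-37376383 on the plus strand a CCAAT box at -66 to -62 that was not footprinted and a CHR at -40 to -35 that was, in both animals.

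The other stretches, of Mcm5 and E2f1, have E2F letters and no CHR. Mcm5 encodes a subunit of the MCM helicase, and its stretch is chr8:75109349-75109529 on the plus strand, from -220 to -40. A pair of E2F octamers on opposite strands overlap there from -213 to -202, and both were footprinted in each animal. CCAAT boxes begin at -137, -82 and -54, the first and the last of them footprinted in both animals. E2f1, itself an activating E2F factor, has chr2:154569864-154570032 on the minus strand, from -140 to 28. Its E2F octamers lie downstream of the TSS, at 4 to 11 and at 17 to 24. The first was footprinted in both animals and the second in animal 1 only.

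CHR, CCAAT and E2F letters were found in a larger share of the members than of all open promoters, as a description with members and motifs chosen with earlier results known. In the 300 bases from 250 upstream to 50 downstream of the TSS, a CHR was present in 15 of 34 members (44.1%), against 11% of the 13116 protein-coding genes whose promoter was open in both animals. A CCAAT box was present in 27 members (79.4%) against 38.2%, and an E2F octamer in 9 (26.5%) against 4.32%. All 15 members with a CHR had a CCAAT box as well, and the pair was found in 4.57% of the open genes. The members have CpG-rich promoters, so the shares were also taken over genes with an observed to expected CpG ratio of at least 0.6: there a CHR was found in 45.2% of 31 members and 9.69% of 9664 genes, a CCAAT box in 80.6% and 38.5%, and an E2F octamer in 25.8% and 5.13%. Other elements were closer to the background. The GC box GGGCGG was found in 82.4% of the members and 65.8% of the open genes, the ETS motif CCGGAAGT in 8.82% and 8.41%, the CRE TGACGTCA in 5.88% and 3.77%, the NRF1 motif TGCGCATG in 2.94% and 4.14%, and the YY1 motif AAGATGGCG in 2.94% and 3.26%. Both strands were searched. Matches to different elements overlapped at 1 member, Mcm7, where a CCAAT box and an E2F octamer share 1 base. A match is a description of letters, and no binding was measured.

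**Figure D1:**
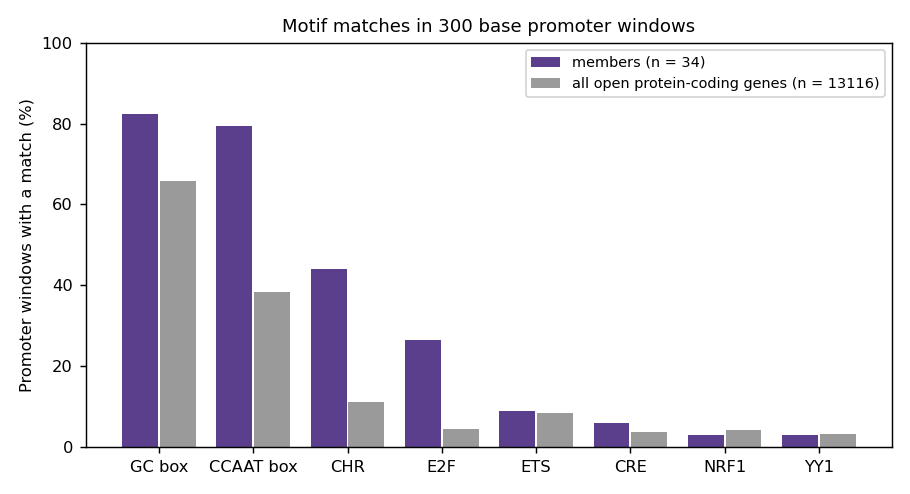
Percent of 300 base promoter windows with at least 1 match to each motif, for the 34 members and, beside them, the 13116 protein-coding genes open in both animals. CHR, CCAAT box and E2F bars differ most in proportion, at 44.1% against 11%, 79.4% against 38.2% and 26.5% against 4.32%.

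Which element was found differed with the roles of the genes. Within the strongest promoter peak, a CHR was found in 11 members: the kinase genes Cdk1, Plk1, Bub1b and Ttk, the cyclin gene Ccnb2, the chromosome and spindle genes Cenpf, Kif11, Top2a and Mki67, Cdc20 and Mcm2. In 8 of these, all but Cenpf, Cdc20 and Mcm2, a CHR was footprinted in both animals. An E2F octamer was found in 9 members in at least 1 animal, of which 7 were among the 9 replication genes (Mcm2 to Mcm7 and Cdt1), beside Cdk1 and E2f1. Within the strongest peaks it was footprinted in both animals at Mcm5, Cdt1 and E2f1. At Mcm7 the strongest peak of animal 2 was an internal peak, so its upstream octamers were scored in animal 1 only. They were footprinted there, and footprints of animal 2 overlapped them as well. A CCAAT box was found in 26 members in at least 1 animal, and 11 members had a footprinted box in the strongest peak of both. The boxes need not be the same, and those counted at Mcm7 lie in different peaks. Aurka is not among the 11, as the strongest peak of animal 1 lies elsewhere. Footprints of animal 1 did overlap the Aurka boxes that were footprinted in animal 2. Ccne1, Birc5, Fzr1, Tyms and E2f2 had none of these 3 elements in the strongest peak. By peak, a CHR was found in 32.4% of the members in each animal, against 6.35% of open genes in animal 1 and 5.31% in animal 2. The shares for E2F were 26.5% in animal 1 and 23.5% in animal 2, against 3.88% and 3.58% of open genes in animals 1 and 2. Those for the CCAAT box were 70.6% in animal 1 and 76.5% in animal 2, against 33.5% and 32.2% in the same animals. Of single CHR matches in the peaks, 9 of 14 (64.3%) were footprinted in animal 1, where the share over all open genes was 32.7%. In animal 2 it was 10 of 14 (71.4%), with 35.8% over all open genes. CCAAT matches were footprinted in 42.3% of cases in the members and 38% in all open genes in animal 1, and in 55.6% and 46.8% in animal 2. E2F matches were footprinted in 56.2% in the members (9 of 16) and 53.5% in all open genes in animal 1, and in 35.7% (5 of 14) and 54.0% in animal 2. These counts are small, and matches of 1 promoter share its peak.

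**Figure D2:**
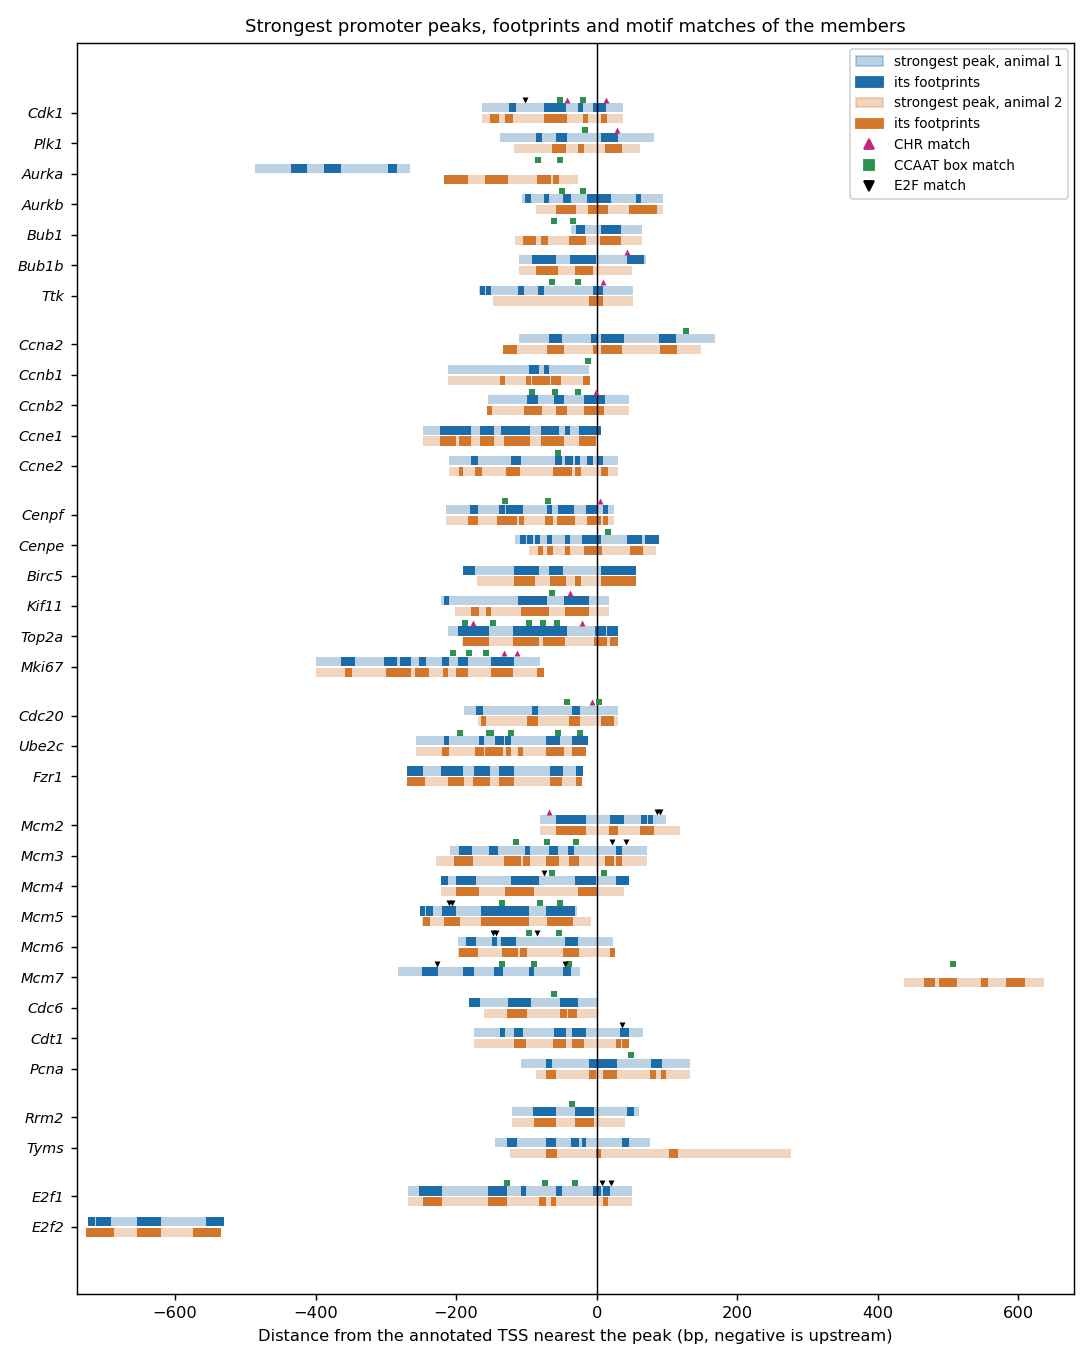
Position of the strongest promoter peak (pale bars), of its footprints (dark bars) and of motif matches (symbols above) along each member, in bp from the annotated TSS, with animal 1 above animal 2. Most peaks lie just upstream of or across the TSS. The peak of E2f2 is centred at -632 from an internal TSS, and the strongest peaks of Aurka and Mcm7 differ between the animals.

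Every member had an open promoter. A peak of the longer deposited list reached within 1 kb of an annotated TSS in 34 of 34 members in both animals, while 61.4% of protein-coding genes had such a peak in animal 1, 62.6% in animal 2 and 59.8% in both. CpG-rich promoters are open in most tissues, and 31 of the 34 members (91.2%) had a CpG ratio of at least 0.6, against 49.2% of protein-coding genes. The members' median ratio was 0.955, and Mcm3, Tyms and E2f2 lay below 0.6 at 0.452, 0.432 and 0.317. Of all genes with a ratio of at least 0.6, 89.5% were open in both animals, so 31 of 31 such members is near the background.

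Openness differed widely among the members. A promoter's height is the authors' signal at its strongest peak, a density of DNase cuts whose unit the files do not state. The median member had a height of 9.18 in animal 1 and 11.2 in animal 2, against 5.82 in animal 1 and 7.0 in animal 2 for all open genes, and 7.15 in animal 1 and 8.74 in animal 2 for open genes with the CpG ratio above. By the mean of the animals the members spanned 1.25 at Tyms to 32.2 at Fzr1. Of the 34, 24 stood at or above the median of the open genes, 14 at or above the 75th percentile and 4 at or above the 90th, while 2 lay below the 25th. Along the order of mean heights, the ranges spanned by the animals were apart for 6 of the 33 pairs of neighbours: Fzr1, Ccne1, Ccna2, Cenpe, Ccnb1 and Plk1 each stood clear of the member next below. All other neighbours overlapped in range. Across the members, the log2 heights in the animals were related with r = 0.94 (Pearson) and rho = 0.925 (Spearman, n = 34 genes), and across all open genes with r = 0.98 and rho = 0.981. Genes share a library and are not replicates.

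**Figure D3:**
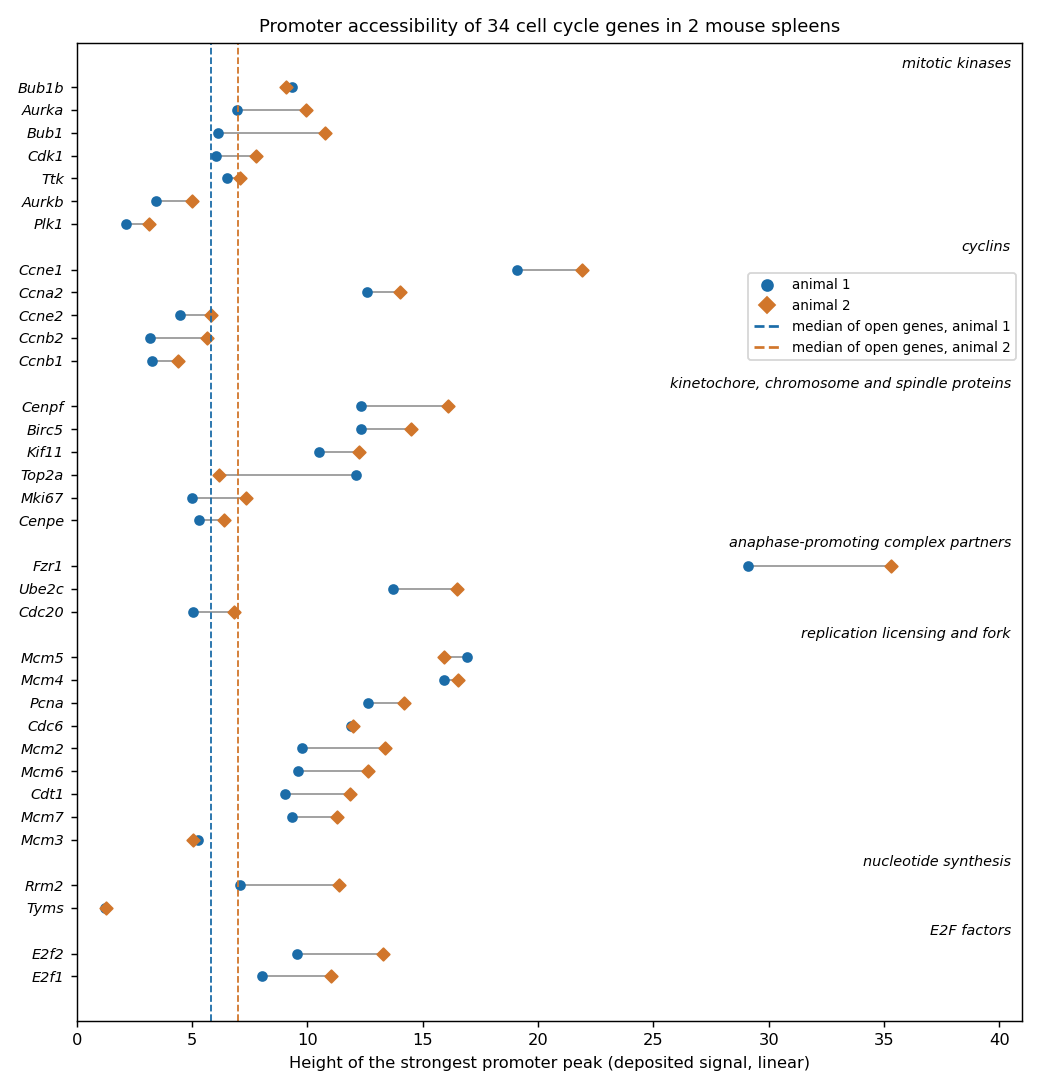
Height of the strongest promoter peak of each member in animal 1 (circles) and animal 2 (diamonds), on a linear axis, by role and in order of the mean. Dashed lines mark the medians of all open genes, 5.82 in animal 1 and 7.0 in animal 2. Fzr1 and Ccne1 stand apart at the high end, Tyms is lowest, and Top2a is the member whose circle lies far to the right of its diamond.

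Among the mitotic kinases the median of the mean heights was 6.91. Bub1b, the gene of the checkpoint kinase BubR1, was highest by the mean of the animals with 9.33 in animal 1 and 9.09 in animal 2 (mean 9.21 ± 0.171, SD, n = 2), at a peak across its TSS. In animal 2 Bub1 and Aurka were above it. Plk1, the polo kinase of centrosome and spindle, was lowest with 2.13 in animal 1 and 3.15 in animal 2 (mean 2.64 ± 0.718, SD, n = 2), and its peak on chromosome 7 lies at 122159301 to 122159520 in animal 1. That low promoter still held a CHR at 26 to 31 that was footprinted in both animals. Cdk1 had 6.06 in animal 1 and 7.76 in animal 2. Ttk, the checkpoint kinase MPS1, had 6.50 in animal 1 and 7.10 in animal 2, and Bub1, which recruits checkpoint proteins to kinetochores, had 6.14 in animal 1 and 10.8 in animal 2. Aurkb, the kinase that corrects attachments to the spindle, had 3.43 in animal 1 and 5.02 in animal 2. Aurka, the kinase of spindle poles, had 6.96 in animal 1 and 9.96 in animal 2 from different peaks. The nearer, centred at -116 from the Aurka TSS in animal 2, had 6.72 in animal 1 and 9.96 in animal 2, and the farther, centred at -376 in animal 1 and inside the neighbour Cstf1, had 6.96 in animal 1 and 8.11 in animal 2. Both sites were open in both animals, and which was stronger differed.

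The cyclin genes ranged from 3.82 to 20.5 by mean height, with a median of 5.13. Ccne1, whose cyclin E1 drives entry into S phase, had 19.1 in animal 1 and 21.9 in animal 2 (mean 20.5 ± 2.01, SD, n = 2), at a peak at 38107541 to 38107780 on chromosome 7. It stood at the 98.0 percentile of open genes. Its paralogue Ccne2 had 4.46 in animal 1 and 5.81 in animal 2, a height below the median of open genes in each animal. Ccne2 had 12 footprints in animal 1 and 13 in animal 2 in its promoter peaks, the second highest number of the members in both animals. These were summed over 3 peaks in animal 1 and 5 in animal 2. The strongest peak held 7 in animal 1 and 6 in animal 2. Ccna2, the cyclin of S phase and early mitosis, had 12.6 in animal 1 and 14.03 in animal 2. A CRE at 99 to 106 downstream of its TSS was footprinted in both animals. The B-type cyclins were low: Ccnb1 had 3.27 in animal 1 and 4.38 in animal 2 (mean 3.82 ± 0.787, SD, n = 2), and Ccnb2 had 3.16 in animal 1 and 5.66 in animal 2.

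Genes of kinetochore, chromosome and spindle proteins had a median mean height of 10.3. Cenpf, the gene of a large outer kinetochore protein, was highest by the mean with 12.3 in animal 1 and 16.1 in animal 2 (mean 14.2 ± 2.69, SD, n = 2). Cenpe, the kinetochore motor, was lowest by the mean with 5.29 in animal 1 and 6.37 in animal 2 (mean 5.83 ± 0.765, SD, n = 2), and a CRE at -8 to -1 there was footprinted in both animals. Birc5, which encodes survivin of the chromosomal passenger complex, had 12.3 in animal 1 and 14.5 in animal 2, and Kif11 had 10.51 in animal 1 and 12.2 in animal 2. Mki67, whose product Ki-67 coats mitotic chromosomes and serves as a marker of dividing cells, had 4.98 in animal 1 and 7.33 in animal 2. Its peak is centred at -240 from the TSS, with a footprinted CHR at -134 to -129 in both animals and another at -116 to -111 that was not footprinted. Top2a had 12.1 in animal 1 and 6.15 in animal 2 and is taken up below. In single animals the order differed: Birc5 was slightly above Cenpf in animal 1, where Mki67 was below Cenpe, and Top2a was below Cenpe in animal 2.

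The 3 partners of the anaphase-promoting complex had a median mean height of 15.1, and Fzr1 was the highest of the 34 members. Its product Cdh1 activates the anaphase-promoting complex from late mitosis through G1 and in resting cells. The height was 29.1 in animal 1 and 35.3 in animal 2 (mean 32.2 ± 4.40, SD, n = 2), at 81378541 to 81378780 on chromosome 10, centred at -145 from the TSS. Cdc20, which activates the same complex earlier in mitosis, had 5.06 in animal 1 and 6.84 in animal 2 (mean 5.95 ± 1.25, SD, n = 2). Fzr1 was above Cdc20 in both animals, and their ranges were apart. Ube2c, the gene of the complex's ubiquitin-conjugating enzyme, had 13.7 in animal 1 and 16.5 in animal 2. Fzr1 lacked CHR, CCAAT and E2F letters in its peak, whereas Cdc20 held a CHR and a CCAAT box.

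Replication genes had a median mean height of 11.5. Mcm5 was highest by the mean, with 16.9 in animal 1 and 15.9 in animal 2 (mean 16.4 ± 0.691, SD, n = 2). Mcm3 was lowest, with 5.24 in animal 1 and 5.03 in animal 2 (mean 5.14 ± 0.150., SD, n = 2) The products of Mcm2 to Mcm7 form a single ring, yet their promoters differed: Mcm4 had 15.9 in animal 1 and 16.5 in animal 2, Mcm2 had 9.75 in animal 1 and 13.3 in animal 2, and Mcm6 had 9.61 in animal 1 and 12.6 in animal 2. Mcm7 had 9.35 in animal 1 and 11.3 in animal 2, again from different peaks, at 138171841 to 138172100 on chromosome 5 in animal 1 and at 138171181 to 138171380, at an internal TSS within an intron, in animal 2. The internal peak had 8.72 in animal 1, and the other had 9.97 in animal 2, so both were open in each spleen. Cdc6 and Cdt1, which load the ring onto DNA, were both above the median of open genes: Cdc6 had 11.9 in animal 1 and 12.0 in animal 2, and Cdt1 had 9.02 in animal 1 and 11.9 in animal 2. Mcm4 was above Mcm5 in animal 2, and their ranges overlapped. Pcna, the sliding clamp of the polymerases, had 12.6 in animal 1 and 14.2 in animal 2.

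Of the nucleotide synthesis genes, Rrm2, the small subunit of ribonucleotide reductase, had 7.08 in animal 1 and 11.4 in animal 2 (mean 9.21 ± 3.02, SD, n = 2). Tyms, the thymidylate synthase gene, had the lowest promoter of all members with 1.23 in animal 1 and 1.28 in animal 2 (mean 1.25 ± 0.0314., SD, n = 2) It was also among the 3 members of low CpG ratio. E2f1 had 8.02 in animal 1 and 11.04 in animal 2 (mean 9.53 ± 2.14., SD, n = 2) E2f2, another activating E2F, had 9.56 in animal 1 and 13.3 in animal 2 (mean 11.4 ± 2.64, SD, n = 2), from an intronic peak at 136180061 to 136180240 on chromosome 4, 7757 bp into the gene from its most 5′ TSS. With that TSS alone the mean height was 2.60, so the height rests on an internal TSS.

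Footprints were present in the promoter peaks of all 34 members in both animals, as in 97% of open genes. There were 207 in animal 1 and 221 in animal 2, with median lengths of 13 bp in animal 1 and 15 bp in animal 2. The share that overlapped a footprint of the other spleen was 78.3% in animal 1 and 73.8% in animal 2. The median member had 6 in each animal, against 5 in animal 1 and 6 in animal 2 for all open genes. Within the strongest peak, footprints covered 36.2% of the members' bases and 30.8% of those of all open genes in animal 1, and 38.5% and 33.3% in animal 2. E2f2 had the most, 16 in animal 1 and 17 in animal 2, summed over 5 promoter peaks in animal 1 and 6 in animal 2. Its strongest peak held 4 in animal 1 and 3 in animal 2, so the rank depends on the number of peaks. The longest was 78 bp at Top2a in animal 1, from -119 to -42 and across 3 CCAAT boxes. In animal 2 the same ground held footprints from -118 to -83 and from -76 to -45. The files give footprints a constant score, so none can be ranked.

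Of the 34 members 3 had a protein-coding gene that starts within 1 kb and runs the other way, against 17.7% of open genes. Aurka starts 146 bp from Cstf1, which encodes a subunit of a polyadenylation factor. Mcm4 starts 466 bp from Prkdc, the catalytic subunit of DNA-dependent protein kinase, which joins broken DNA. Mcm7 starts 184 bp from Ap4m1, a subunit of an adaptor complex of vesicle transport. A further 3 face an antisense RNA gene: Plk1 and Gm15489 start 38 bp apart, Pcna and AV099323 43 bp, and Ube2c and Gm11457 232 bp. Peaks there cannot be given to one direction, and the heights of these 6 members are those of the shared promoter, except at Mcm7 and Mcm4. That of Mcm7 in animal 2 comes from the internal peak. That of Mcm4 comes from a peak across its own TSS, centred at -91 in both animals. A separate Mcm4 peak lay near the Prkdc start, centred at -441 in animal 1 and -461 in animal 2. It had 6.40 in animal 1 and 8.05 in animal 2. Most strongest peaks were centred upstream of every annotated TSS of the gene, in 28 members in animal 1 and 27 in animal 2. The same count was not taken over all open genes, so this is not read as a trait of the members.

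Between the animals most members were lower in animal 1, as were most open genes, and Top2a was not. Promoter height was lower in animal 1 than in animal 2 in 30 of 34 members, with a median log2 ratio of animal 1 over animal 2 of -0.32 (SD 0.32 across genes). All open genes had a median of -0.27 (SD 0.29), and 14.6% of them were higher in animal 1. When each library was scaled to its own median the members stood at -0.05. Top2a had a log2 ratio of 0.98 from 12.1 in animal 1 and 6.15 in animal 2, at overlapping peaks. It was the 1 member of 34 over 2-fold from the median ratio, where 0.587% of open genes lay, and 24 of the 13116 open genes had a ratio at or above it. The shorter list, the higher 50% of the peaks, the most 5′ TSS and windows of 500 bp or 2 kb all selected the same Top2a peaks. Its value was therefore the same by construction in these settings. The 3 matched peaks within 20 kb of Top2a had ratios of -0.50 to 0.37. The next highest were Mcm5 at 0.09, Mcm3 at 0.06 and Bub1b at 0.04. At the other end stood Ccnb2 at -0.84, Bub1 at -0.81 and Rrm2 at -0.68. Relative to the median of the open genes, Mki67 stood at -0.29, Cdk1 at -0.09 and Birc5 at 0.03, against 1.25 for Top2a. With 1 library per animal, these ratios describe the pair of libraries.

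**Figure D4:**
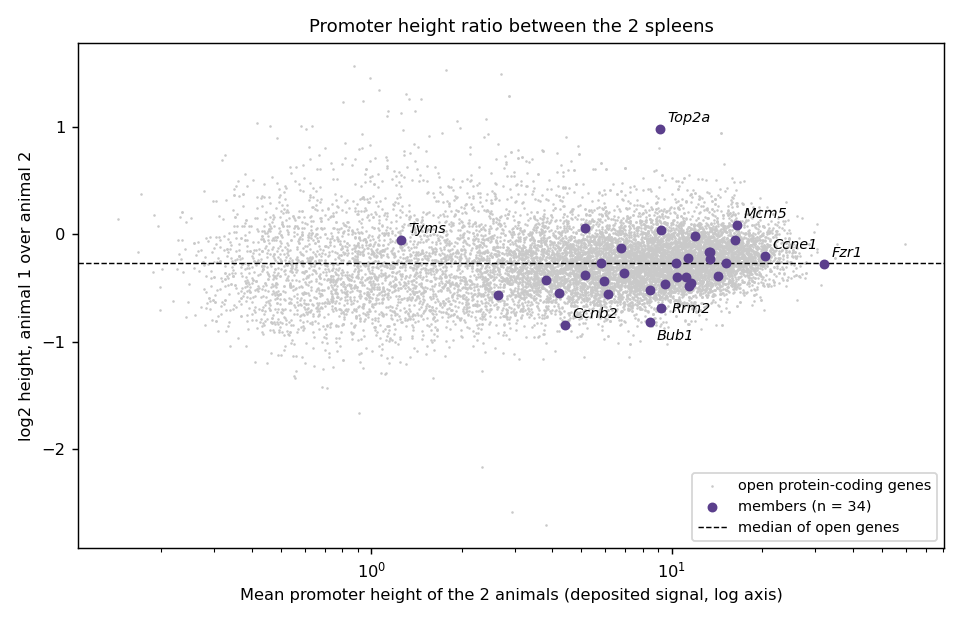
Log2 ratio of promoter height, animal 1 over animal 2, against the mean height of the animals on a log axis, for the 34 members (purple) over all 13116 open genes (grey). The dashed line is the median of the open genes, -0.27. Top2a stands at 0.98, above the other members, whose highest is 0.09.

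Around the members lay further open sites. Beyond the promoter and within 20 kb of a TSS there were 144 peaks in animal 1 and 132 in animal 2. The median for each member was 4 in animal 1 and 3 in animal 2. For all protein-coding genes, open or not, it was 2 in each animal. For genes with a CpG ratio of at least 0.6 it was 3 in animal 1 and 2 in animal 2, closer to the members. Of the members' further peaks, 32.6% in animal 1 and 34.8% in animal 2 lay within 1 kb of a TSS of another coding gene. Without such peaks the medians were 2 for the members against 1 for all genes, in each animal. The median heights of the members' further peaks, 1.51 in animal 1 and 2.00 in animal 2, were below those of the members' promoters. Plk1, Ttk, Mcm3 and Mcm4 had no such peak in either animal. Aurkb had the most, 21 in animal 1 and 17 in animal 2, of which 18 in animal 1 and 14 in animal 2 were at no other coding start. E2f2 followed with 12 in each animal, none of them at another coding start, and 9 in animal 1 and 8 in animal 2 inside the gene.

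In 9 members the strongest site within 20 kb was higher than the member's own promoter, in both animals. For 7 of them it was the promoter of a neighbour, such as Cds2 beside Pcna, Aprt beside Cdt1 and Cenph beside Ccnb1. The other 2 were Ccne1 and Mki67. Such higher sites were not counted over all open genes, so the 9 are not read as a trait of the members. Near Ccne1 a peak at 38084881 to 38085120 on chromosome 7, 14368 bp downstream of its nearest TSS, had 21.2 in animal 1 and 23.6 in animal 2 and held 5 footprints in each. That was above the Ccne1 promoter in both animals. The promoter peak, at 38107541 to 38107780, is at another Ccne1 TSS, farther than 20 kb from this site. The site itself lies outside the gene. Near Mki67 a peak at 135735761 to 135736020 on chromosome 7 in animal 1, centred at -19530 from its TSS, had 8.07 in animal 1 and 9.30 in animal 2, against 4.98 in animal 1 and 7.33 in animal 2 at the promoter, and held 6 footprints in each. No TSS of another protein-coding gene lies within 1 kb of either site, and which gene they act on was not measured.

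**Figure D5:**
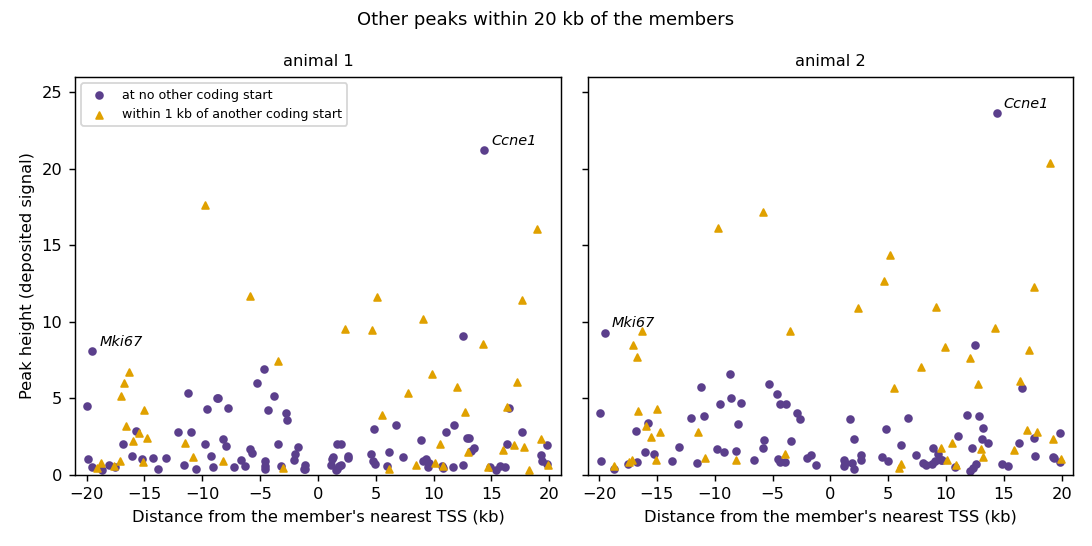
Height of each further peak within 20 kb of a member against its distance from the nearest TSS of that member (kb, negative is upstream), in animal 1 (left) and animal 2 (right). Triangles are within 1 kb of another coding TSS. The site near Ccne1 is the highest of all, at 21.2 in animal 1 and 23.6 in animal 2.

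The wider machinery of the cell cycle was open too. All 72 further genes in 7 lists had an open promoter in both animals, against 59.8% of protein-coding genes. Of the 72, 65 (90.3%) had a CpG ratio of at least 0.6, and 89.5% of all such genes were open in both animals. The count is therefore near the background of CpG-rich promoters. The 72 genes had a median mean height of 8.50 and a median log2 ratio of -0.20. By list the median mean heights were 13.1 for checkpoint genes, 11.1 for motors and chromosome separation, 9.02 for MuvB and its partners, 8.88 for the anaphase-promoting complex, 8.49 for origin recognition and helicase loading, 7.79 for G1 regulators and 3.68 for inhibitors of cyclin-dependent kinases. The inhibitors held both ends: Cdkn2d, the gene of p19, had 23.6 in animal 1 and 26.5 in animal 2, and Cdkn2a, which encodes p16 and ARF, had 0.580 in animal 1 and 0.557 in animal 2. Foxm1 and Mybl2, which join MuvB at late genes, were also open. Foxm1 had 2.84 in animal 1 and 3.96 in animal 2, and Mybl2 had 8.87 in animal 1 and 9.21 in animal 2.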

How the data were processed

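The data are DNase-seq libraries of 2 spleens. Per the deposited file listings, the authors aligned each library to mm10 and derived peaks, footprints and cut-rate intervals from that library alone. Which aligner and callers were run, and with what thresholds, is not given in the sources used here. Each library has 2 peak lists, and the deposited peak height is a signal with no stated unit. Heights were whole multiples of a step of 0.00716 in animal 1 and 0.00679 in animal 2, with offsets of at most 0.000697 of a step in animal 1 and 0.000737 in animal 2, and the lowest member stood at 172 steps in animal 1 and 188 in animal 2. Whether a step is 1 cut is not stated, so the depth is not given and counting error was not modelled. The deposited footprints carry a constant 0.01 in the p-value column, and the deposited cut-rate files give an FDR, a q-value, per interval, under 0.05 in all of them.

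From the longer list, promoter height was taken from the strongest peak overlapping 1 kb on each side of any GENCODE M21 TSS. Footprints counted by their midpoint, motif matches by any overlap with a footprint. A mean ± SD has n = 2. No test was run, since there is 1 group. Scripts used Python 3.11.15, numpy 2.4.6, pandas 2.3.3 and matplotlib 3.10.9, and the overlap steps recovered 500 of 500 simulated placements. The members, the lists and the motifs were chosen with earlier results of these data known. All 34 members were accounted for by role, with the highest and lowest of each role in full. Alternatives were the shorter list, the higher 50% of the peaks, other windows and distances, the most 5′ TSS, scaling to the library median, and each animal left out. Genes of CpG ratio of at least 0.6 and the members without Top2a were added after seeing the data.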

Additional observations from a re-analysis of the deposited data

How the results depend on the processing

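All 34 members kept a promoter peak and a footprint in both animals with the shorter list, the higher 50% of the peaks, the most 5′ TSS, and windows of 500 bp and 2 kb. Of all protein-coding genes, 56% were open in both animals with the shorter list and 52.1% with the higher 50% of the peaks. The share was 55% with the most 5′ TSS, 58.3% within 500 bp and 61.9% within 2 kb. Shares of CpG-rich genes and of footprinted genes were not taken in these settings. The 34 of 34 is therefore not read as a trait of the members. The median promoter height, 9.37 by the mean of the animals, was 9.18 to 11.2 with 1 animal left out. The median log2 ratio of -0.32 was the same with the shorter list, the higher 50% of the peaks, the most 5′ TSS and a window of 2 kb. The shorter list, the higher 50% and the 2 kb window left every member's height unchanged, so these runs could not move it. It was -0.27 within 500 bp and -0.36 without Top2a. After scaling to the library medians it was -0.05, against an SD of 0.32 across members, so its sign there is not read. The number of further peaks within 20 kb, a median of 3.25 for each member, depends on how it is counted: it was 1.75 with the higher 50% of the peaks, 2 with the most 5′ TSS, 1 within 10 kb, 7.25 within 50 kb and 1.75 without peaks at other coding starts, and 3 to 4 with 1 animal left out. Of single members, only E2f2 had a mean height that shifted by more than the SD of its animals, to 2.60 with the most 5′ TSS. With n = 2, leaving 1 animal out always shifts a member's mean by less than that SD. Those runs therefore cannot decide whether the height of a single member is stable. Without depths, no limit can be given for a site that is not listed. No paired analysis was possible because there is 1 group, so no replicate number is shared between groups.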
